A study of Drosophila melanogaster with 91 samples.

Results

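The genes described are those of the cytosolic ribosomal proteins of Drosophila melanogaster, the proteins that with ribosomal RNA make up the large and small subunits of the ribosome. They were chosen by name: every gene of the count table whose FlyBase symbol is RpL, RpS or RpLP followed by a digit, or sta, the gene of the small subunit protein SA. Of 15682 fly genes in the table, 88 met this rule, 47 of them RpL genes of the large subunit, 37 RpS genes and sta of the small subunit, and 4 RpLP genes, of which 3 encode the stalk of the large subunit and 1 is RpLP0-like. Another 5 genes that carry such names, RpS10b, RpL27A, RpL31, RpL19 and RpS12, were not matched to the count table by ID. They were not analysed here, and the family's shares leave them out.

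The samples were 91 single whole embryos, labelled in steps of 15 min. The first was at -15 min and the last at 1335 min, counted from cellularization, when membranes close around the nuclei of the early embryo. The labels name no strain, genotype or treatment. All embryos were bleached to remove the chorion, glued to a cover slip, timed under a microscope at one temperature and frozen singly. RNA was read by CEL-Seq, which counts barcoded 3' ends. Embryos were placed in 7 windows of 13 by labelled time: window 1 from -15 to 165 min, window 2 from 180 to 360, window 3 from 375 to 555, window 4 from 570 to 750, window 5 from 765 to 945, window 6 from 960 to 1140 and window 7 from 1155 to 1335 min. In whole embryos, fewer cells of a type and less RNA per cell cannot be told apart.

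A ribosome holds 1 copy of nearly every one of its proteins, so cells make them in matched amounts, and in flies the loss of 1 copy of many of these genes gives the Minute phenotype of slow growth and short bristles. The egg is loaded by the mother with ribosomes and with messenger RNA for their proteins, and the embryo takes over transcription around the time of cellularization. Most fly ribosomal proteins have a single gene. A few have a pair of genes for nearly the same protein, and in several pairs 1 gene is known to be expressed widely and the other mainly in the germ line, such as RpS19b. Genes with names ending in -like are relatives of ribosomal proteins, and RpLP0-like, RpL24-like and RpL7-like are related to yeast factors of ribosome assembly. The yeast relatives of RpLP0-like and RpL24-like occupy the site of the true protein while ribosomes are assembled.

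Gene counts per library had a median of 1644069 and ran from 3662, at 120 min, to 3308015. The library at 120 min and those at 210, 825, 1065, 1155 and 1170 min lay under 548023 counts. The deposited sample sheet gives each embryo a sequencing lane and a library index, and embryos that share an index are called a library pool here. The 4 pools follow time: pool 4 up to 315 min, pool 5 from 330 to 645 min, pool 6 from 660 to 990 min and pool 7 from 1005 min on. Pools 4 and 5 were read on lane 3, and pools 6 and 7 on lane 4. Window 1 lies in pool 4 and window 7 in pool 7, so pool, lane and age cannot be told apart between them. Of the check lists, the eggshell and yolk genes summed to at most 28.5 CPM in any embryo, while the germ plasm and germ line list summed to between 67.7 and 304 CPM in window 7 and to between 52.5 and 2237 CPM in window 1. The germ line list summed to 1410 CPM at 45 min and to 156 CPM at 60 min, and its genes osk and pgc averaged 0.859 and 1.05 CPM in window 7 and 279 and 287 CPM in window 1. Its gene tud went the other way, with 77.4 CPM in window 7 and 52.8 CPM in window 1. The 11 heat shock genes summed to between 205 and 4183 CPM in window 7 and to between 160 and 9002 CPM in window 1.

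Each level is in CPM, a gene's counts in 1000000 counts on fly genes. The 88 genes together took 29.3% ± 4.73 of gene counts in window 7 and 23.2% ± 5.45 in window 1 (SD, n = 13 each). The means of windows 2 to 6 were 25.6%, 28.6%, 28.2%, 26.3% and 27.7%. The lowest shares were 17.7% at -15 min and 15.9% at 0 min, and the highest were 39.2% at 1170 min and 35.8% at 150 min. The windows overlapped: window 7 ran from 24.4% to 39.2% and window 1 from 15.9% to 35.8%. Counted against the spike-in RNAs added to each library, the family gave 4.80 ± 1.13 counts per spike-in count in window 7 and 4.56 ± 1.47 in window 1, a smaller difference than the SD of either window. Without the library at 120 min the window 1 mean was 4.94 ± 0.575 (n = 12), above that of window 7, so no direction is read from this ratio. Mitochondrial transcripts, the other large class, took 9.24% of gene counts in window 7 and 12.3% in window 1.

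**Figure D1:**
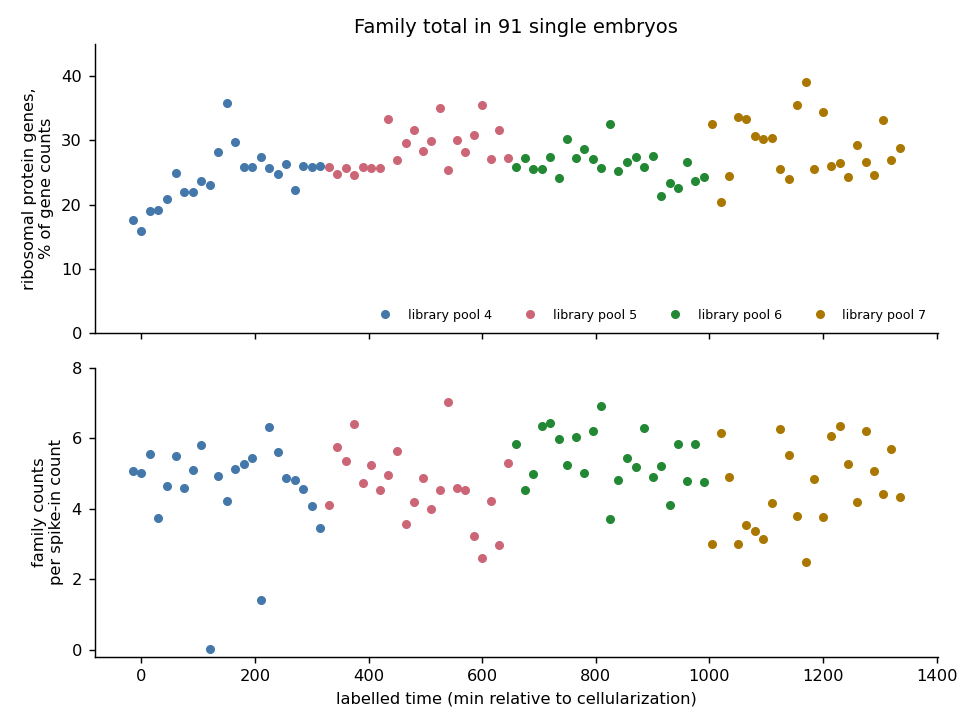
The share of gene counts on the 88 ribosomal protein genes (upper panel, %) and their counts per spike-in count (lower panel) are plotted against labelled time, 1 point per embryo, coloured by library pool. The share is lowest at 0 min, with 15.9%, and the library at 120 min lies near 0 in the lower panel because spike-ins made up 96.0% of its gene and spike-in counts.

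Within the family, the mean shares of the subunits in windows 7 and 1 differed by less than 1 SD. Genes of the large subunit held 55.9% ± 1.40 of family counts in window 7 and 56.4% ± 2.22 in window 1, and those of the small subunit 39.6% ± 1.48 in window 7 and 39.2% ± 1.91 in window 1 (SD, n = 13 each). The 3 stalk genes held 4.53% ± 0.505 in window 7 and 4.43% ± 0.554 in window 1. RpLP0, the base of the stalk, averaged 2118 ± 476 CPM in window 7 and 1680 ± 615 CPM in window 1, and RpLP1, which pairs with RpLP2 on that base, 5253 ± 789 CPM in window 7 and 3727 ± 803 CPM in window 1. RpLP2 averaged 5787 ± 1029 CPM in window 7 and 4790 ± 1292 CPM in window 1.

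Levels within the family spanned a wide range. Because CEL-Seq counts 3' ends, a CPM is not multiplied by transcript length, but genes can still differ in how well their ends are captured and mapped. The median gene averaged 2477 CPM over all embryos, 73 of the 88 averaged at least 1000 CPM and 81 at least 50 CPM. RpL21, a large subunit protein, stood highest with 27179 ± 8704 CPM (SD, n = 91) and held 9.83% of family counts. RpL41, a peptide of 25 codons, averaged 13078 ± 6962 CPM, RpL40, made as a fusion to ubiquitin, 12802 ± 2657 CPM, RpS23, a decoding centre protein, 7665 ± 1616 CPM and RpS28b 6981 ± 2010 CPM. These 5 genes held 24.3% of family counts. RpL41 had the largest SD relative to its mean of the 5: it lay at 38521 CPM in the library labelled 825 min and at 35339 CPM at 150 min, against 3778 CPM at 0 min. The library labelled 825 min, with 433347 gene counts, stood apart from its neighbours, which had 15673 CPM of RpL41 at 810 min and 13378 CPM at 840 min. Its label was kept.

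The last window was compared with the first, which holds embryos from before and after cellularization. By edgeR's quasi-likelihood test with TMM scaling, which takes most genes as level, 74 of the 81 genes tested rose in window 7 and 1 fell. Of all 5527 genes tested, 30.2% rose and 28.2% fell, and the median log2 change was 1.34 over the family and -0.01 over all genes. The 6 that did not pass were RpL24-like, RpL7-like, RpLP0-like, RpL34a, RpS14b and RpL41, with log2 changes from 0.04 to 0.62. How far the family rose depended on the scaling. With library size alone, which moved the median of all genes to -1.04, 48 rose and 3 fell and the family's median was 0.44. With spike-in scaling, which moved the median of all genes to -1.38, 1 rose and 1 fell, with a family median of 0.17. The shares of all genes called with library size alone or with spike-ins are not given, here or below. These counts are therefore not read as particular to the family.

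Once each library was scaled to the family, the question became which genes left the common course. Of 81 genes tested, 5 were higher and 14 lower relative to the family in window 7 than in window 1. In the same fit, 13.8% of all 5527 genes were higher and 59.8% lower, and the median was 0.02 over the family and -1.57 over all genes. The scaling itself places the family near 0 and shifts all other genes, so these shares and medians are not a result about the family.

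Among the genes that were higher, RpS6, the small subunit protein phosphorylated by S6 kinase, had 0.42 ± 0.13 (adjusted p = 0.0047), RpL28 had 0.38 ± 0.15 (adjusted p = 0.0236) and RpL24 0.36 ± 0.10 (adjusted p = 0.00246). RpS6 averaged 2374 ± 295 CPM in window 7 and 1364 ± 409 CPM in window 1. RpL11, chosen after its values were seen, had 0.26 ± 0.10. RpL12, RpL29, RpL9 and RpL32 were next in order, with 0.35, 0.33, 0.28 and 0.28, and did not pass.

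Among the genes that were lower, RpL34a stood at -1.23 ± 0.22 (adjusted p = 1.51e-05). RpS3A, a small subunit protein, had -0.83 ± 0.16 (adjusted p = 3.34e-05). It lay between 1568 and 2771 CPM in window 7 and between 1784 and 7373 CPM in window 1, so the ranges overlapped. The 7373 CPM is that of the library at 120 min, which had 3662 gene counts. Leaving out each embryo in turn gave RpS3A values from -0.86 to -0.65. RpS14b had -0.70 ± 0.17, RpL41 -0.71 ± 0.23 and RpL10Ab -0.67 ± 0.23. The assembly factor relatives RpLP0-like, RpL7-like and RpL24-like had -0.96 ± 0.35, -0.80 ± 0.29 and -0.72 ± 0.20 and passed together. RpL21 had -0.36 ± 0.07 (adjusted p = 0.000104) and RpS27A, the other ubiquitin fusion, -0.27 ± 0.11 (adjusted p = 0.0288). The ubiquitin fusion RpL40 had 0.02 ± 0.08 and the stalk genes RpLP0, RpLP1 and RpLP2 -0.13, 0.08 and -0.12, none of them past the test. Also lower were RpS2 (-0.56), RpS25 (-0.46) and RpS26 (-0.22), chosen after their values were seen. Leaving out the library at 120 min raised the count to 31, 12 higher and 19 lower, and all 19 first called kept their direction and their call.

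**Figure D2:**
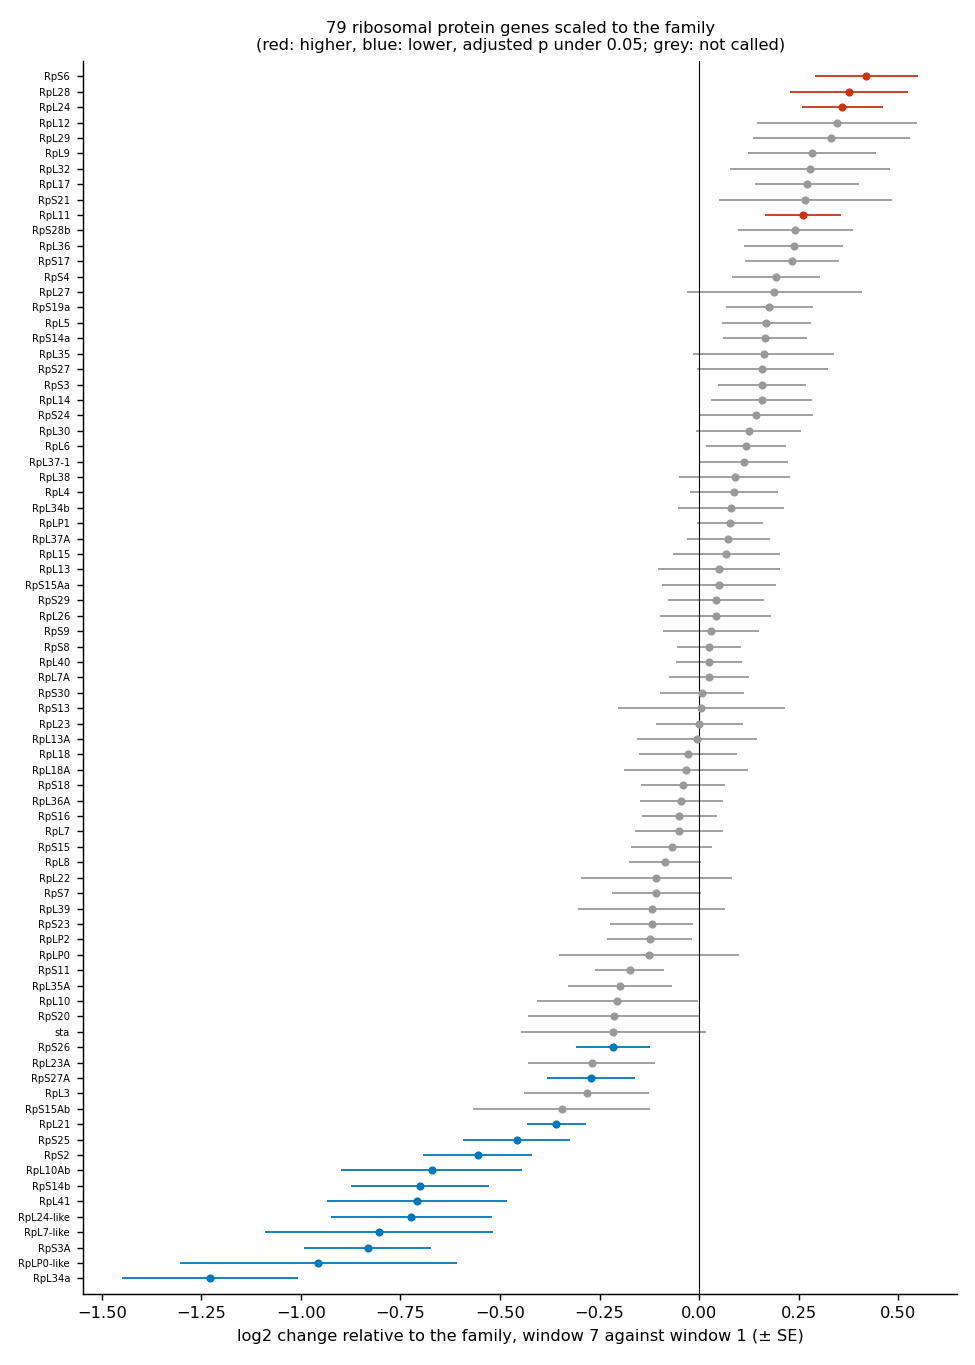
The log2 change of 79 of the 81 genes in window 7 against window 1, scaled to the family, is plotted with its SE, sorted from highest at the top to lowest. The plotted genes run from RpS6 at 0.42 to RpL34a at -1.23.

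Of the 13 pairs compared, 7 had both members at 50 CPM or more on average. In 6 of these 7 the log2 ratio of the pair differed between windows 7 and 1 after adjustment over 13 pairs. Of all 5527 genes tested with TMM scaling, 30.2% rose and 28.2% fell between these windows. Ratios of other gene pairs were not tested, so the count is not read as particular to ribosomal protein pairs. RpS14a and RpS14b encode small subunit protein S14 from neighbouring genes with no other protein-coding gene between them, and each has 151 codons. Among embryos with at least 10 counts of the pair, RpS14b made up 13.1% ± 2.54 of the pair in window 7, from 9.36% to 17.7%, and 21.6% ± 1.77 in window 1, from 19.2% to 25.6%, so the windows did not overlap. The log2 ratio of RpS14a to RpS14b was higher by 0.88 in window 7 (two-sided permutation p = 2e-05, the smallest it can give; adjusted p = 9e-05). The RpS14a level averaged 2761 ± 499 CPM in window 7 and 1840 ± 516 CPM in window 1, while RpS14b averaged 427 ± 156 CPM in window 7 and 502 ± 144 CPM in window 1.

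RpL34a and RpL34b encode large subunit protein L34. RpL34a held 8.33% ± 2.33 of the pair in window 7, from 4.78% to 13.5%, and 18.3% ± 5.96 in window 1, from 0% to 22.6%. The 0% is the library at 120 min. The log2 ratio of RpL34a to RpL34b was lower by 1.28 in window 7 (permutation, adjusted p = 0.00039), and by 1.46 without the 6 shallow libraries. RpS15Aa and RpS15Ab, both of 130 codons, moved less: RpS15Aa held 89.5% ± 1.90 of the pair in window 7 and 86.8% ± 2.04 in window 1, a log2 ratio higher by 0.38 (permutation, adjusted p = 0.00635), with overlapping windows.

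The assembly factor relatives held smaller shares beside their namesakes in window 7. RpL24-like made up 9.71% ± 2.80 of its counts with RpL24 in window 7, from 5.88% to 14.8%, and 18.7% ± 1.97 in window 1, from 15.1% to 21.4%. The windows did not overlap, and the log2 ratio was lower by 1.14 in window 7 (permutation, adjusted p = 9e-05). RpL24-like averaged 372 ± 138 CPM in window 7 and 447 ± 100 CPM in window 1, while RpL24 averaged 3436 ± 731 CPM in window 7 and 1972 ± 443 CPM in window 1. RpL7-like held 3.33% of its counts with RpL7 in window 7 and 5.76% in window 1, lower by 0.85 on the log2 scale (permutation, adjusted p = 0.00481). RpLP0-like held 2.51% ± 1.70 with RpLP0 in window 7 and 3.67% ± 1.22 in window 1, and its difference of -0.71 did not pass (permutation, adjusted p = 0.0781). Its course was not one-way, with means of 3.67%, 8.59%, 8.96%, 5.71%, 3.32%, 6.34% and 2.51% over the 7 windows. At or near their 3' ends, RpL24-like, RpLP0-like and RpL7-like overlap the genes Dtd, Jra and CG34164 in the current annotation. The strand setting of the counting is not given, so some of their counts could belong to those neighbours. RpL7-like and CG34164 lie on the same strand. The same limit holds for other family genes, among them RpL24 (CG7099), RpL41 (NaCP60E), RpL28 (nSMase) and RpL10Ab (CG32095).

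**Figure D3:**
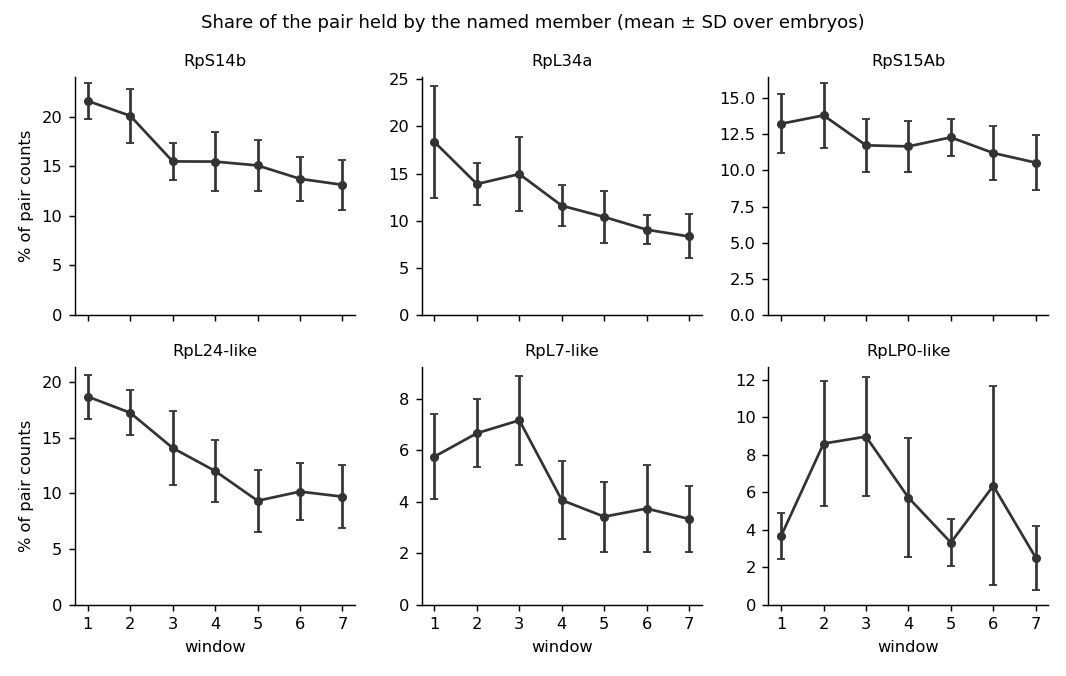
Each panel gives the share of pair counts (%) held by the named member in windows 1 to 7, as mean and SD over the embryos with at least 10 counts of the pair. RpS14b stands at 13.1% in window 7 and 21.6% in window 1, and RpLP0-like is highest in window 3 with 8.96%.

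The other paralogs were close to absent. RpS19b, a germ line form of S19, gave 1157 counts over all embryos, in 64 of 91, and averaged 8.16 ± 11.8 CPM in window 7 and 3.72 ± 6.53 CPM in window 1, beside 2961 ± 725 CPM of RpS19a in window 7 and 1976 ± 607 CPM in window 1. RpS28a gave 47 counts in 7 embryos of windows 2 to 5, and 0 in windows 7 and 1, which allows up to 0.130 CPM in window 7 and 0.143 CPM in window 1 from 3 counts over the window. RpS28b, its partner, averaged 8397 ± 2381 CPM in window 7 and 5354 ± 2091 CPM in window 1. RpL10Aa gave 1 count in all embryos, RpL22-like, known from the testis, 109 counts in 19 embryos, RpS28-like 123 counts in 21, and RpS10a 201 counts in 33. RpL37-2 gave 55 counts in 10 embryos of window 7 and 0 in window 1, where 3 counts would be 0.143 CPM. RpS28-like had 60 of its 123 counts in window 4. In 6 pairs 1 member averaged under 50 CPM, so its ratio rests on the 0.5 counts added to each gene, and no difference is read from them. Floors and shares cover counting error only, as PCR copies were not removed by any molecular identifier known from the sources used here.

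Between neighbouring windows few family members passed the test. In window 2 against window 1, 4 rose and 0 fell, where 11.3% of all genes rose and 13.9% fell. RpLP0-like rose by 1.15 ± 0.24 (adjusted p = 0.000891), and RpL38, RpL36 and RpS3 by 0.66, 0.64 and 0.57. These 3 were chosen after their values were seen. The count was 13 with limma voom, 2 without the shallow libraries and 0 with spike-in scaling. In window 3 against window 2, 2 family genes rose and 2 fell. RpL21 rose by 0.54 ± 0.13 (adjusted p = 0.0199), and RpL34b fell by 0.73 ± 0.17 and RpL34a by 0.67 ± 0.16 (adjusted p = 0.0174 and 0.0175). Of all genes, 2.02% rose and 1.39% fell there.

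In window 6 against window 5, RpS29, chosen after its values were seen, alone rose, by 0.57 ± 0.14 (adjusted p = 0.0495), where 0.452% of all genes rose and 0.0645% fell. In all, 66 of 82 family genes had an unadjusted p under 0.05 there, and 11 were called with DESeq2 size factors, 13 without the library labelled 825 min, and 0 with limma voom, with library size alone or with spike-in scaling. The share of all genes with an unadjusted p under 0.05 is not given, here or below. Nothing particular to the family is therefore read from such counts. No family gene was called by edgeR in window 4 against window 3, window 5 against window 4 or window 7 against window 6, where 9, 9 and 4 had an unadjusted p under 0.05. The share of all genes that rose in those comparisons was 0%, and the share that fell was 0%, 0.0956% and 0%. By limma voom 1, 0 and 0 family genes were called there.

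RpL21 and RpL34b changed level where the library pool changed. RpL21 averaged 39515 ± 6334 CPM in pool 5 (SD, n = 22), and 24067 ± 5435 CPM in pool 4, 21480 ± 3045 CPM in pool 6 and 24190 ± 5213 CPM in pool 7 (n = 23 each). The last embryo of pool 4, at 315 min, had 27455 CPM and the first of pool 5, at 330 min, 36542 CPM. At the next border the embryo at 645 min had 34120 CPM and that at 660 min, the first of pool 6, 20982 CPM. RpL34b moved the other way, with 1218 ± 234 CPM in pool 5 and 2008 ± 540, 2370 ± 264 and 2497 ± 333 CPM in pools 4, 6 and 7. It stood at 2066 CPM at 315 min and 1148 CPM at 330 min, then at 1421 CPM at 645 min and 2313 CPM at 660 min. Of the 81 family genes of at least 50 CPM, RpL34b was the only one whose embryos all lay lower in pool 5 than in pool 6, as 0.613% of all 2448 genes at that level did. RpL34a averaged 197 ± 41.4 CPM in pool 5 and 368 ± 125, 284 ± 68.6 and 225 ± 40.0 CPM in pools 4, 6 and 7, so its level in pool 7 was close to that in pool 5. It stood at 435 CPM at 315 min and 187 CPM at 330 min, then at 231 CPM at 645 min and 295 CPM at 660 min. At these borders a step in time of 15 min and a change of pool cannot be told apart, nor, between 645 and 660 min, a change of lane.

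**Figure D4:**
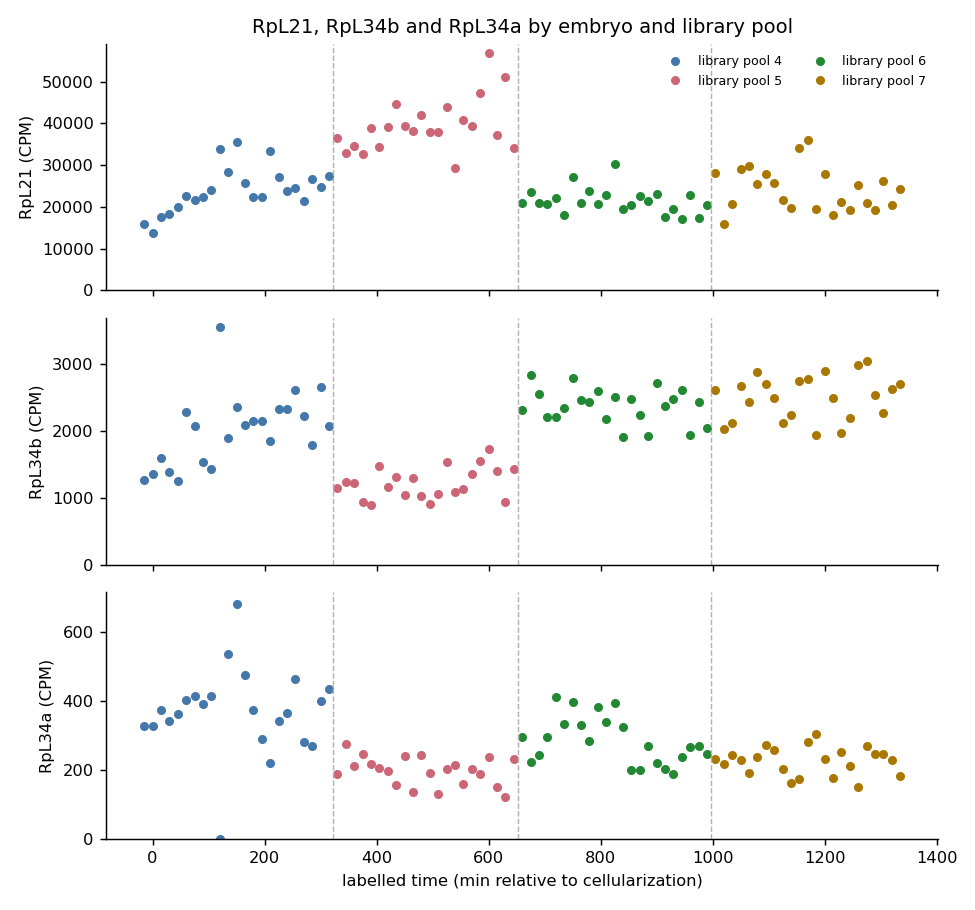
RpL21, RpL34b and RpL34a (CPM) are plotted against labelled time, 1 point per embryo, coloured by library pool, with dashed lines between pools. RpL21 is high and RpL34b low in the embryos of pool 5, with means of 39515 and 1218 CPM.

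Over the whole course, a spline of labelled time was tested in 82 family genes, of which 80 varied, beside 82.1% of all 8717 genes. The median fitted range was 1.90 on the log2 scale for the family and 3.16 for all genes. RpL41 and RpS19b did not pass. With spike-in scaling 13 varied and with pool as a covariate 57. The shares of all genes in fits with spike-ins or pool are not given, here or below. These lower counts are therefore not read as particular to the family. Scaled to the family, 47 of 82 varied, beside 91.6% of all genes, with a median fitted range of 0.35 for the family and 3.99 for all genes. The scaling uses the family's own counts, which by itself narrows the family's range, so the family and all genes are not weighed against each other here. Among the smallest adjusted p there were those of RpL21 (3.97e-22), RpL34b (3.73e-15) and RpL34a (1.03e-13). With pool as a covariate 3 passed by edgeR, RpS14b (adjusted p = 0.017) and RpS6 (adjusted p = 0.0233) among them. RpL21 (adjusted p = 0.456), RpL34b (adjusted p = 0.787) and RpL34a (adjusted p = 0.119) did not. Within pool 4 alone, RpLP0-like passed (adjusted p = 0.0306), and within pools 5, 6 and 7 none did by edgeR, where 2, 1 and 1 had an unadjusted p under 0.05.

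Genes that build and regulate ribosomes were taken from lists, and the examples were chosen after their values were seen. Of 31 tested genes for ribosome assembly and RNA polymerase I, the enzyme that transcribes ribosomal RNA, 5 rose and 10 fell in window 7 against window 1 with TMM scaling, with a median log2 change of -0.43. Of all 5527 genes, 30.2% rose and 28.2% fell in that fit. The rises did not hold under other scalings: 0 rose and 17 fell with library size alone, and 0 rose and 16 fell with spike-in scaling. These 2 scalings also moved the median of all genes, to -1.04 and -1.38, beside list medians of -1.28 and -1.61. Nlp, a nucleoplasmin, fell by 2.20 ± 0.28 with TMM scaling and averaged 80.9 CPM in window 7 and 716 CPM in window 1. Surf6, a nucleolar protein, fell by 2.01 ± 0.31 and averaged 12.4 CPM in window 7 and 86.9 CPM in window 1. Both fell under all 3 scalings. In window 2 against window 1, 9 of 33 rose and 1 fell with TMM scaling, 6 rose and 2 fell with library size alone, and none was called with spike-in scaling. Of all genes, 11.3% rose and 13.9% fell there with TMM scaling. Fib, the methylase fibrillarin, averaged 305 CPM in window 2 and 121 CPM in window 1, a log2 change of 1.33 ± 0.27 with TMM scaling that did not pass with spike-in scaling (edgeR, adjusted p = 0.15). The 33 genes summed to 2150 ± 757 CPM in window 7 and 4526 ± 818 CPM in window 1, with the highest mean, 5368 CPM, in window 2.

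Of 10 tested genes for elongation and nascent chains, 3 rose and 1 fell in window 7 with TMM scaling, 2 rose and 4 fell with library size alone, and 0 rose and 4 fell with spike-in scaling. Of all 5527 genes, 30.2% rose and 28.2% fell with TMM scaling. The median of all genes was -0.01 there, -1.04 with library size alone and -1.38 with spike-in scaling. Rack1, a protein of the small subunit's head, averaged 1929 CPM in window 7 and 1516 CPM in window 1. Its log2 change was 1.28 ± 0.28 with TMM scaling, 0.35 ± 0.15 with library size alone and 0.083 ± 0.45 with spike-in scaling, where it did not pass. Of 12 regulators of growth and of ribosomal protein genes, 4 rose and 4 fell with TMM scaling, 2 rose and 4 fell with library size alone, and 2 rose and 5 fell with spike-in scaling. With TMM scaling these counts lay near the shares of all genes. Thor, the fly 4E-BP that restrains translation, averaged 479 CPM in window 7 and 82.6 CPM in window 1, and REPTOR, a transcription factor held back by TOR, 223 CPM in window 7 and 37.3 CPM in window 1. Both rose under all 3 scalings, by 3.21 ± 0.54 and 3.58 ± 0.40 on the log2 scale with TMM. Dref, M1BP and pzg, which are known to act at promoters of housekeeping and ribosomal protein genes, fell by 1.89, 1.62 and 1.64 with TMM scaling. They fell under the other 2 scalings too, where the median of all genes was also lower.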

How the data were processed

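CEL-Seq libraries of 91 single embryos were deposited as 1 table of raw counts per gene. Per the submitters' processing notes the authors used CASAVA 1.8, Bowtie2 2.1.0, HTSeq 0.5.4p3 and build BDGP5; the strand setting is not given in the sources used here. In the deposited counts, genes held 60.7% of all counts, 92 ERCC spike-ins 3.29%, reads in no feature 16.6%, ambiguous reads 2.44% and unaligned reads 17.1%; only genes entered library sizes. Symbols came from a name table and matched 15001 of 15682 IDs. The 681 IDs without a symbol held 9.06% of gene counts, and any family genes among them were left out. The current annotation, of another build, gave neighbours and coding lengths.

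Windows were compared with edgeR 4.0.16 (R 4.3.3), its quasi-likelihood F-test, TMM scaling and filterByExpr, with Benjamini-Hochberg adjustment over all genes tested and a threshold of 0.05; SE is the log2 change divided by the root of F. Time was also fitted as a spline of 5 degrees of freedom. Family scaling used the summed counts of the family genes that passed the filter, with TMM among them. Pair ratios had 0.5 added to each count and were tested with 100000 permutations (SciPy 1.17.1), two-sided. DESeq2 1.42.0 and limma 3.58.1 were alternatives. The fits were tested on simulated data. Named genes were pair members, stalk and ubiquitin fusion genes, the highest levels, the 8 highest and 8 lowest relative to the family and the 8 largest SDs of deviation from the family mean. Of the genes counted, 1 pair is not reported here by name. Members and lists were chosen with earlier results of these data known. The labels do not name separate parents, so p-values reflect only how these single embryos varied.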

Additional observations from a re-analysis of the deposited data

How the results depend on the processing

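No paired analysis was possible because the labels give no replicate numbers that are shared between windows. Library pools follow time, the shallow library at 120 min lies in window 1, and depth limits genes under 50 CPM. Library size alone, the scalings tried on the gene lists, and the leaving out of the library at 120 min with family scaling or in the spike-in ratio were chosen after seeing the data. Leaving out each embryo in turn gave 73 to 78 calls in window 7 against window 1, and 17 to 31 with family scaling. With spike-in scaling, 2 family genes were called in window 7 against window 1, 13 in the spline, 0 in window 2 against window 1, 0 in window 3 against window 2 and 0 in window 6 against window 5. Within pools 5, 6 and 7 the spline called 0, and scaled to the family 0, with 1 in pool 4 and 3 with pool as a covariate. With family scaling, window 7 against window 1 gave 31 without the shallow libraries, 31 without that at 120 min and 33 with limma voom. Window 2 against window 1 gave 2 without the shallow libraries and 13 with limma voom, and window 3 against window 2 gave 8 with library size alone. Window 4 against window 3 gave 1 with DESeq2 size factors, 5 with no filter and 1 with limma voom, and window 5 against window 4 gave 1 without the shallow libraries and 1 without 825 min. Window 6 against window 5 gave 11 with DESeq2 size factors, 13 without 825 min, and 0 with library size alone, no filter, limma voom or without the shallow libraries. The shares of all genes called in these alternative fits are not given, so nothing particular to the family is read from the counts. Without mitochondrial genes the family share was 29.2% in window 2 and 31.6% in window 4. By pool it was 32.3% ± 5.83 in pool 7, which holds window 7 and part of window 6. In pool 4, which holds window 1 and part of window 2, it was 28.0% ± 6.00 (SD, n = 23 each). With mitochondrial genes these pools had 29.0% and 24.3%.

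Some log2 changes between windows 7 and 1 turned round. With library size alone RpL10Ab had -0.23, RpL34a -0.84 and RpS3A -0.41. With spike-in scaling RpL10Ab had -0.27, RpL21 -0.17, RpLP0 -0.052, RpS15Ab -0.21, RpS20 -0.16, RpS27A -0.14, RpS3A -0.48 and sta -0.21. The mean log2 deviation of the CPM from the family mean, window 7 minus window 1, was 0.55 for RpLP0, 0.45 for sta and 0.47 for RpS20 over all libraries. Without the shallow libraries it was -0.11 for RpLP0, -0.34 for sta and -0.21 for RpS20. These 3 genes had 0 counts in the library at 120 min. The cause was not tested.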

Other observations

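RpL27, RpS21, RpS13, RpS20, sta and RpLP0 had large SDs of deviation from the family mean, between 0.967 and 1.04 on the log2 scale over all embryos. Each had 0 counts in the library at 120 min, and without the 6 shallow libraries the SDs lay between 0.142 and 0.542. The expression patterns nearest to theirs, by Spearman correlation over the 90 embryos that are left without that library and that share pools and depth, were mostly those of other ribosomal protein genes. RpL27 lay nearest to RpL17 (rho 0.79) and RpL7A (0.79), RpS21 to RpL30 (0.74), RpS13 to RpS9 (0.72) and RpS20 to RpS18 (0.61). The gene sta lay nearest to Rack1 (0.68), and RpLP0 to ATPsynCF6 (0.74), a subunit of the mitochondrial ATP synthase.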
